A study of Mus musculus with 4 samples.

Results

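Messenger RNA was measured for 37 genes of cell adhesion in flow-sorted liver macrophages: the 18 integrin α chains, the 8 integrin β chains, and 11 partners, namely talins, kindlins, vinculin, paxillin, 2 focal adhesion kinases and 3 counter-receptors. The members are a list of symbols, and the rule that picks their rows uses no measured value. All 37 were found among the 29247 genes of the count table, and 35 of them were among the 18715 genes with enough reads to be tested. The tested libraries were 3 of Cxcr4+ macrophages from C57BL6J mice aged 8 weeks, taken 72 h after an intraperitoneal dose of 300 mg/kg acetaminophen (APAP) in saline. They were set against 1 library of control liver macrophages from mice of the same strain and age. APAP is a painkiller that injures the liver at high dose, and Cxcr4 is the receptor for the chemokine CXCL12. The Cxcr4+ sort is named only for the APAP libraries and the control's gate is not described, so APAP and the sort cannot be told apart. Nothing in the labels ties the 3 APAP libraries to separate animals, and their spread, the only spread the p-values rest on, may be technical; the single control is given the same spread.

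Integrins are surface receptors made of 1 α and 1 β chain. Together they bind matrix proteins or receptors on other cells, and the pairing sets what is bound. Talin and kindlin bind the β tail inside the cell and switch the receptor on, while vinculin, paxillin and the focal adhesion kinases link it to actin and to signalling. In the liver, resident macrophages (Kupffer cells) adhere inside the sinusoids partly through integrins, and integrins of the β2 and α4 types let monocytes stop on the vessel wall.

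The libraries held 48282283, 52043418 and 56702837 counts for APAP and 49950909 for the control, and levels below are in CPM, reads per 1e+06 reads of a library total multiplied by its TMM (trimmed mean of M-values) factor. Macrophage markers were high in all 4 libraries: Lyz2, a lysozyme of myeloid cells, stood at 7970, 8810 and 8570 CPM in APAP Cxcr4+ macrophages and 6750 CPM in the control. Lyz2 itself was not called. The 8 macrophage markers summed to 16500 to 19100 CPM in APAP Cxcr4+ macrophages, against 19300 CPM in the control. Of these 8, 2 were called higher and 4 lower, with a median log2 fold change of -0.48. The 6 Kupffer cell markers summed to 10900 to 14200 CPM in APAP Cxcr4+ macrophages, against 31400 CPM in the control, and all 6 were called lower. The 6 markers of monocyte-derived macrophages summed to 2750 to 5530 CPM in APAP Cxcr4+ macrophages, against 26.1 CPM in the control, and all 6 were called higher, with Chil3 at 0 in the control. Markers of other blood cells were also higher: the 12 B cell markers summed to 346 to 545 CPM in APAP Cxcr4+ macrophages, against 63.3 CPM in the control, and the 12 T cell markers to 132 to 172 CPM in APAP, against 75.3 CPM in the control. In bulk libraries such as these, fewer cells of a type and less RNA per cell cannot be told apart. Fold changes also moved with transcript length over the 14027 protein-coding genes tested: of the fifth with the longest exons, at least 5394 bases, 55.8% were called higher and 4.6% lower, and of the fifth with the shortest, at most 1803 bases, 9.91% were called higher and 46.2% lower. The tested members were long, with a median of 4926 bases against 3218 over those genes. Calls of members, and of the other pathway genes named, that a correction for length and GC content changed are therefore given beside each gene, and the part of length in any result was not tested further. The correction removed the trend only in part. The Spearman rank correlation of log2 fold change with exon length was 0.403 before it and 0.152 after it. A call that held after the correction is therefore not free of the trend.

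Most of the members called were integrin α chains, and every α chain called was higher in the APAP Cxcr4+ macrophages, except Itgal and Itga9 after the correction for length and GC. A gene was called when the adjusted p of edgeR's quasi-likelihood test was below 0.05, with adjustment over all 18715 genes; fold changes are APAP Cxcr4+ over control. Of the 35 members tested, 18 were called (51.4%), against 44.3% of all genes tested, so the share is near that of all genes. The 13 called higher (all genes 25.4%) comprised 10 of 17 α chains, the β chains Itgb3 and Itgb8, and vinculin. The 5 called lower (all genes 18.9%) were the β chain Itgb7, kindlin-2, focal adhesion kinase, Icam1 and Icam2. Differences of at least 2-fold were called higher for 11 members (all genes 15.2%), counting Itga2 and Itgb8 by the lower bounds given with them, and lower for 1 (all genes 7.38%). By group, 10 α chains were called higher and 0 lower of 17 tested (58.8% called, all genes 44.3%). Of 7 β chains 2 were called higher and 1 lower (42.9%), and of 11 other partners 1 higher and 4 lower (45.5%). The median log2 fold change was 1.14 for the α chains, -0.16 for the β chains and -0.26 for the partners. Over all genes tested it was 0.08. After the length and GC correction the group medians were 0.68, -0.22 and -0.31, against -0.059 over all genes. Every tested α chain but Itga2b had at least 3783 exon bases. Of tested protein-coding genes with 3783 to 5392 bases 33.4% were called higher (median log2 fold change 0.25), and of longer ones 55.8% (0.62). For α chains called lower, the count was also 0 at an unadjusted p under 0.05, by DESeq2 and by limma-voom, but it was 2 after the correction for length and GC, when Itgal and Itga9 passed and 8 α chains were called higher. The 4 lower partners became 1 without APAP library 2, 2 without APAP library 3 and 6 without APAP library 1. Itga2 and Itgb8, with 0 counts in the control, and Itgad, with 7, passed the read filter only through the APAP libraries, so they could be called only higher. In the libraries themselves the control lay below all 3 APAP values for 13 α chains (all genes 45.7%), above all 3 for 3 (all genes 39.2%) and within their range for 1. Itga2 and Itgad are among these 13. For the 7 β chains tested the same counts were 2, 3 and 2, and for all 35 members tested 18, 13 and 4.

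**Figure D1:**
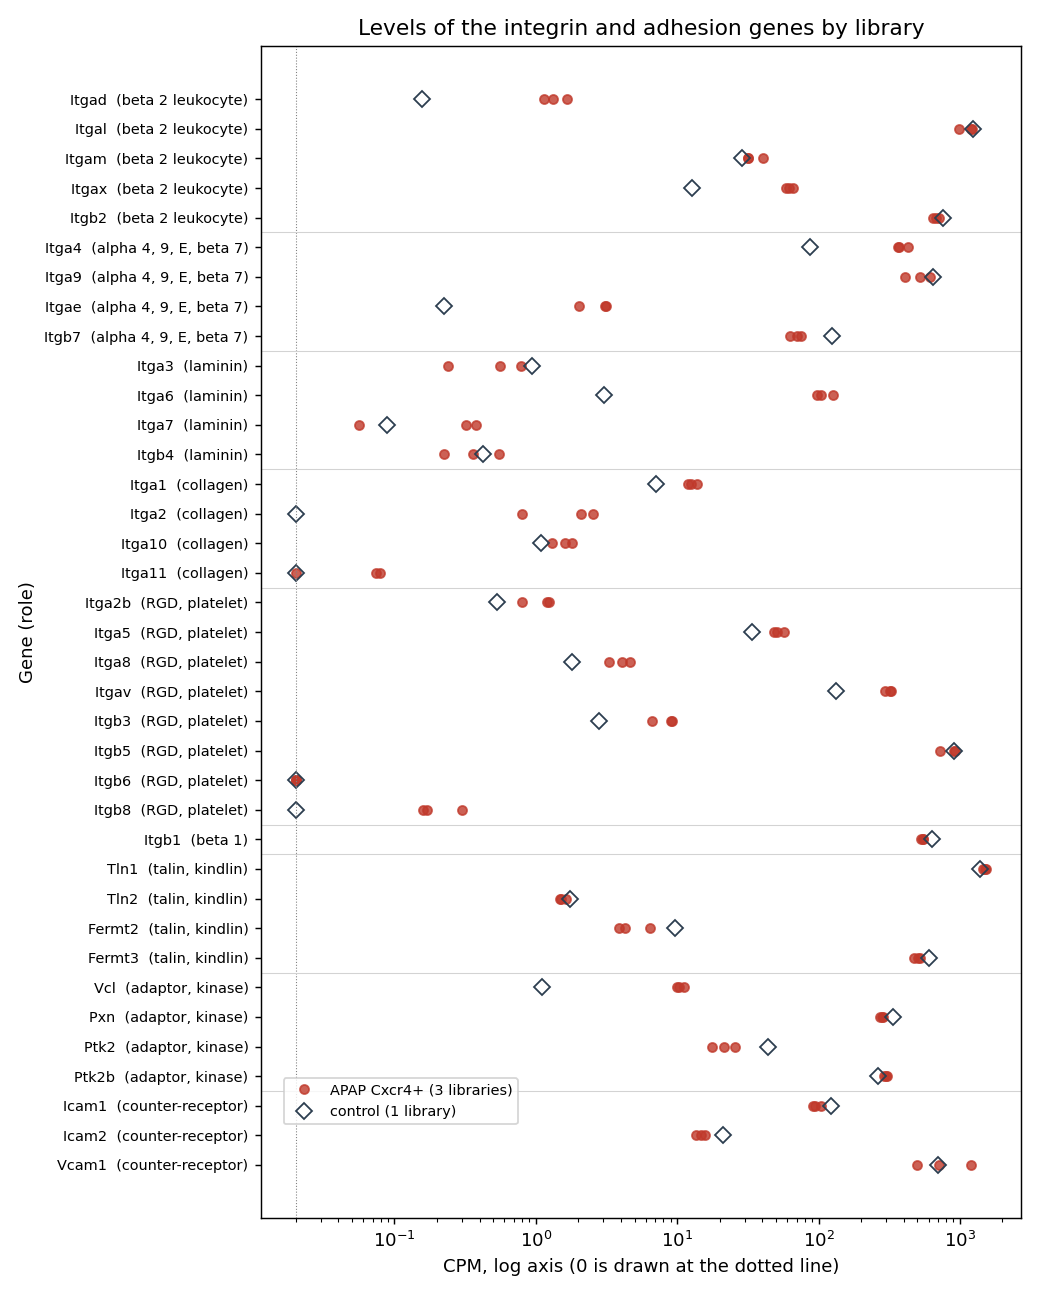
CPM of each of the 37 members by library, on a log axis, grouped by role; filled circles are the 3 APAP Cxcr4+ libraries, open diamonds the 1 control library, and 0 is drawn at the dotted line. Itga6 sits at 98.0 to 126 CPM in the APAP libraries, far right of its control diamond at 3.05 CPM, while the control diamond of Itgb1 lies beside its APAP circles.

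**Figure D2:**
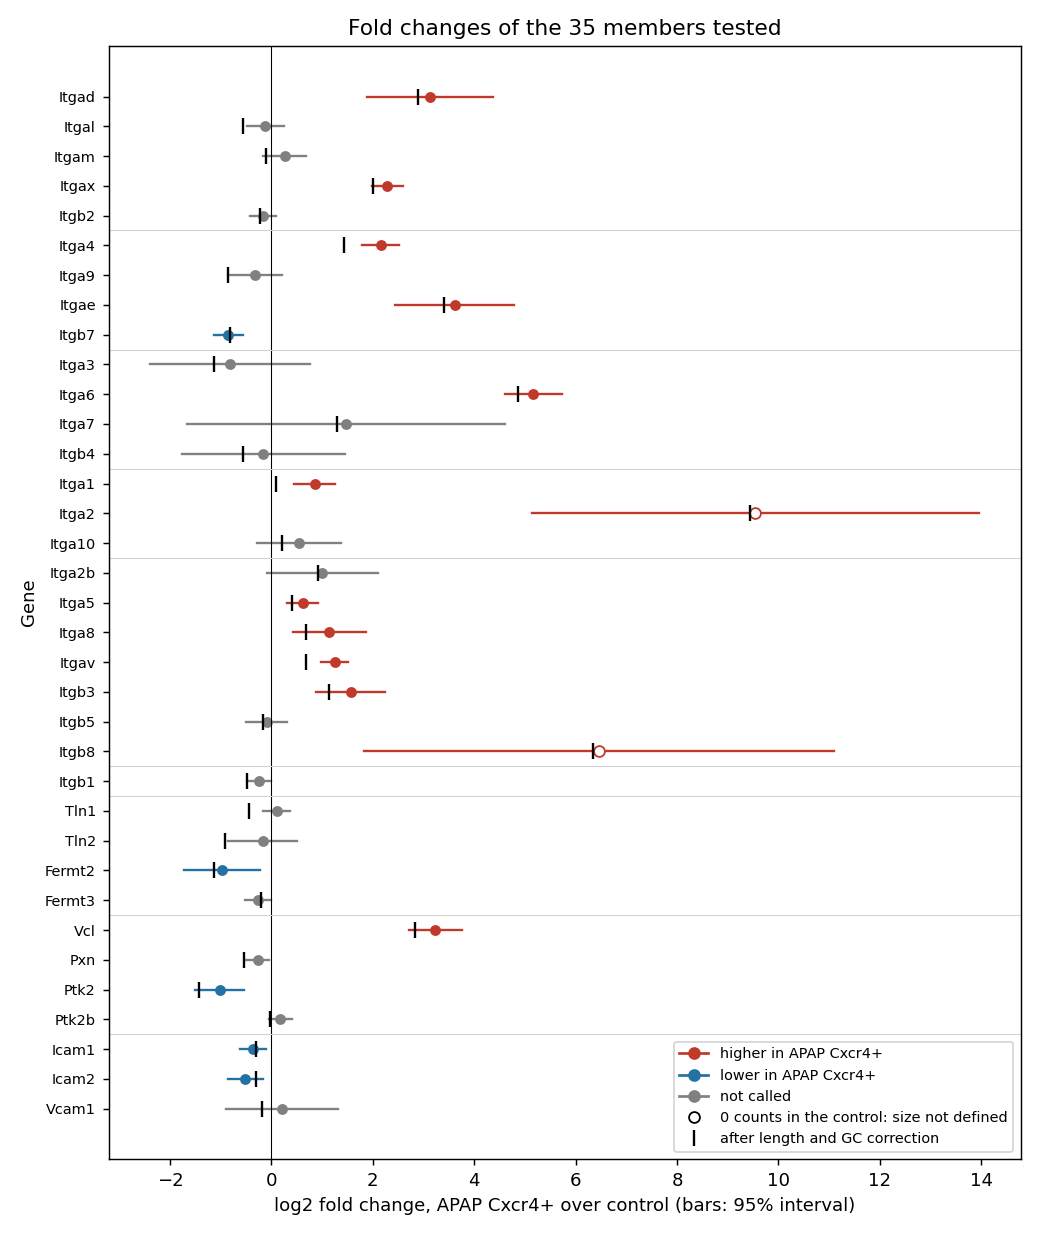
Log2 fold change of the 35 tested members, APAP Cxcr4+ over control, with 95% intervals; colour gives the call, open circles mark genes with 0 counts in the control, and black ticks the value after correction for length and GC. The ticks lie left of the circles for most members, and for Itga1 the tick is near 0 at 0.08.

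To show the stretches in front of some genes that differed, the 250 bases upstream of the RefSeq start are given for 4 members called higher and 1 called lower. Itga6 had no matched RefSeq window and is not shown. Capitals mark 4 short motifs searched on both strands: GAGGAA, bound by PU.1; TGTGGT, bound by RUNX factors; GGGCGG, bound by Sp1; and TGANTCA, bound by AP-1. A match on the minus strand shows as its reverse complement, so TTCCTC is a PU.1 match and ACCACA a RUNX match, and overlapping Sp1 matches merge into 1 run of capitals. Coordinates are of GRCm38.p6, not of the mm39 build behind the counts.
Itga4, chr2:79255176-79255425, plus strand: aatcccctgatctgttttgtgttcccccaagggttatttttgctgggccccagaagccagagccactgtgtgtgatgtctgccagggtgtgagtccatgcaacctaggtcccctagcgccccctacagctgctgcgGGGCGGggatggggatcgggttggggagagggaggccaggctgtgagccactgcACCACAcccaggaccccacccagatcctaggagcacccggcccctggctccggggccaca
Itgav, chr2:83724147-83724396, plus strand: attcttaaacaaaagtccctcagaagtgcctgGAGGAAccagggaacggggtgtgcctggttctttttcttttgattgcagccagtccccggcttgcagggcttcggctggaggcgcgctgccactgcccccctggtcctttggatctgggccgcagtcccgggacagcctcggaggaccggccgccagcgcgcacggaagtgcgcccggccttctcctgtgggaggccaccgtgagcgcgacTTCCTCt
Itgax, chr7:128129300-128129549, plus strand: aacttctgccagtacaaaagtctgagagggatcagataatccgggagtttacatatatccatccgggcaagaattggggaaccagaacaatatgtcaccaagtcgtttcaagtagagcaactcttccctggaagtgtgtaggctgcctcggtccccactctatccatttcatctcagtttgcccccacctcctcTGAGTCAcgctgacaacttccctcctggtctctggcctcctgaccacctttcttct
Vcl, chr14:20929148-20929397, plus strand: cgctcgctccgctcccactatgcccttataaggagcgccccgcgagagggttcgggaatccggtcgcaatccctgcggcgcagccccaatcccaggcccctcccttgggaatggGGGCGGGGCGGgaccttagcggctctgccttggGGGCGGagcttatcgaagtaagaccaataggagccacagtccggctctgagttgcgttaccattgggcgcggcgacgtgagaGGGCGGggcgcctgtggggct
Itgb7, chr15:102231936-102232185, minus strand: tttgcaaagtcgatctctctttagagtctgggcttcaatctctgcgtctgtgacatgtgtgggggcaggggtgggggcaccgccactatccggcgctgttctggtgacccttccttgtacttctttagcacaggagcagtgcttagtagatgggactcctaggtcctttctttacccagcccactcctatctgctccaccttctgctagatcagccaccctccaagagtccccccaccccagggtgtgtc

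RefSeq windows were matched for 23 of the 37 members. The Itga4 window holds 1 RUNX and 1 Sp1 match, that of Itgav 2 PU.1 matches, that of Itgax 1 AP-1 match and that of Vcl 4 Sp1 matches, while the Itgb7 window holds none of these letters. Over 32817 mouse windows of the same length, 23.3% hold the PU.1 letters, 14% the RUNX letters, 32.7% the Sp1 letters and 6.75% the AP-1 letters. Among members with a window, PU.1 letters stood in 2 of 9 called higher, 0 of 3 called lower and 5 of 9 not called. A match is a run of letters and no evidence of binding.

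Among the β2 integrins of leukocytes, the αX and αD chains were called higher while the chains with the highest levels did not pass the test. Itgax, the αX chain (CD11c) of complement receptor 4, had 62.2, 66.2 and 58.5 CPM in APAP Cxcr4+ macrophages, against 12.8 CPM in the control. Its log2 fold change was 2.28 (SE 0.13, edgeR adjusted p = 0.000841). The APAP values lie close together, far above the control, and the call held in all settings tried, with a range of 2.01 to 2.34. Itgad, the αD chain, had 1.67, 1.15 and 1.33 CPM in APAP Cxcr4+ macrophages and 0.156 CPM in the control, for a log2 fold change of 3.13 (SE 0.50, edgeR adjusted p = 0.00569). All 3 APAP libraries were above the control, from few reads: 84, 62 and 78 counts in APAP and 7 in the control. With the control under the filter's minimum count of 10, Itgad was tested only through the APAP libraries and could be called only higher. Markers of conventional dendritic cells, which share CD11c with some macrophages, summed to 88.1 to 120 CPM in APAP Cxcr4+ macrophages and 44.8 CPM in the control, with 6 of 8 called higher, and their part in the Itgax result was not tested.

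Itgal, the αL chain of LFA-1 that binds ICAMs, had 988, 1200 and 1210 CPM in APAP Cxcr4+ macrophages and 1230 CPM in the control. The log2 fold change was -0.12 with a 95% interval of -0.49 to 0.25 and was not called; after the length and GC correction it was -0.57 and called lower. Itgb2, the shared β2 chain, had 680, 710 and 647 CPM in APAP Cxcr4+ macrophages and 764 CPM in the control, with an interval of -0.43 to 0.09. For both genes the control lies just above the APAP libraries. Itgam, the αM chain (CD11b) of complement receptor 3, had 31.6, 40.2 and 31.9 CPM in APAP Cxcr4+ macrophages and 28.9 CPM in the control, for a log2 fold change of 0.26 (95% interval -0.16 to 0.67) that was not called. In the GENCODE M21 annotation 70% of its exon bases are shared with Gm49368 on the same strand, which had 3, 5 and 3 counts in APAP and 0 in the control; how shared reads were counted is not known, so the level of Itgam is uncertain.

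Per kilobase of exon, the only scale on which levels are set between genes here, αL held 88.0%, 88.8% and 90.3% of the summed transcripts of the 4 α partners of β2 in APAP Cxcr4+ macrophages, against 95.6% in the control. αX held 8.15%, 7.21% and 6.43% in APAP Cxcr4+ macrophages and 1.46% in the control. αM held 3.64%, 3.85% and 3.08% in APAP Cxcr4+ macrophages and 2.91% in the control. Counted over only its unshared exon bases, a choice made after seeing the data, αM averaged 10.9% in APAP Cxcr4+ macrophages and 9.08% in the control, and αL averaged 82.3% in APAP and 89.5% in the control. On either count αL was the main partner in every library, and its mean share was lower in the APAP libraries.

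In the group of α4, α9, αE and β7, the α4 and αE chains rose and the β7 chain fell. Itga4, which pairs with β1 as VLA-4 to bind VCAM-1 and fibronectin, had 429, 368 and 362 CPM in APAP Cxcr4+ macrophages, against 86.7 CPM in the control. Its log2 fold change was 2.16 (SE 0.15, edgeR adjusted p = 0.001). The 3 APAP values were all at least 4 times the control value, and the call held after the length and GC correction at 1.42. Itgae, the αE chain (CD103) that binds E-cadherin with β7, had 3.08, 2.03 and 3.12 CPM in APAP Cxcr4+ macrophages and 0.223 CPM in the control, for a log2 fold change of 3.61 (SE 0.48, edgeR adjusted p = 0.00326). Its control value rests on 10 counts and every APAP library is above it. Itgae and Itga4 are also made by lymphocytes and dendritic cells, whose marker sums were higher in APAP as given above, and the part of those cells in these results was not tested.

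Itgb7, the β chain that pairs with α4 and αE, had 70.2, 75.1 and 62.8 CPM in APAP Cxcr4+ macrophages, against 125 CPM in the control. It fell by 0.85 on the log2 scale (SE 0.12, edgeR adjusted p = 0.00347). All 3 APAP libraries lay below the control. The ratio of Itga4 to Itgb7 per kilobase was 1.68, 1.35 and 1.59 in APAP Cxcr4+ macrophages and 0.19 in the control. Itga9, the α9 chain that also pairs with β1, had 411, 520 and 617 CPM in APAP Cxcr4+ macrophages and 648 CPM in the control, for a log2 fold change of -0.33 (95% interval -0.86 to 0.20) that was called lower only after the length and GC correction, at -0.85. Its APAP values spread by 1.5 times and come close to the control in library 3. Per kilobase, Itga9 stood at 1.31, 1.93 and 2.33 times Itga4 in APAP Cxcr4+ macrophages and at 10.2 times in the control.

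Of the laminin-binding chains, α6 had the largest defined fold change among all tested members. Itga6, which pairs with β1 or β4 as a laminin receptor, had 126, 98.0 and 104 CPM in APAP Cxcr4+ macrophages, against 3.05 CPM in the control. The log2 fold change was 5.16 (SE 0.23, edgeR adjusted p = 0.000841), a 35.8-fold difference, and 4.86 after the length and GC correction. The APAP libraries are close to each other and the control rests on 137 counts against 6332, 5264 and 6097. Its partner Itgb4, the β4 chain of epithelial laminin receptors, had 0.358, 0.223 and 0.546 CPM in APAP Cxcr4+ macrophages and 0.423 CPM in the control, within their range. Itga3 had 0.239 to 0.785 CPM in APAP Cxcr4+ macrophages and 0.935 CPM in the control, and Itga7 had 0.0558 to 0.375 CPM in APAP and 0.089 CPM in the control. Neither was called, and both are laminin-binding chains near the limit of detection here. The ratio of Itga6 to Itgb1 per kilobase was 0.203, 0.161 and 0.167 in APAP Cxcr4+ macrophages and 0.00417 in the control. Platelets also carry α6. Of the 6 platelet markers tested, Treml1 and Nrgn were called higher and Pf4 and Clec1b lower. Treml1 had 0 counts in the control and could be called only higher. Gp6, a platelet collagen receptor, was at 0 in all 4 libraries. The list summed to 247 to 306 CPM in APAP Cxcr4+ macrophages and 557 CPM in the control, mostly from Clec1b, at 218 to 280 CPM in APAP and 517 CPM in the control. Pf4 came next, at 18.7 to 25.5 CPM in APAP and 38.4 CPM in the control. Ppbp, Gp9, Gp5 and Tubb1 had at most 10 counts in every library, so the sum is not a measure of platelet content. The part of platelets in the Itga6 result was not tested.

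Of the collagen-binding chains, α1 and α2 were called higher, both at lower levels. Itga1 had 13.7, 12.5 and 11.9 CPM in APAP Cxcr4+ macrophages and 7.03 CPM in the control, for a log2 fold change of 0.85 (SE 0.16, edgeR adjusted p = 0.01). The groups do not overlap, but Itga1 is among the long genes at 10967 bases, and after the length and GC correction the value was 0.08 and not called. Itga2 had 127, 112 and 47 counts in APAP Cxcr4+ macrophages and 0 in the control (edgeR adjusted p = 0.00923). In the mean of the APAP libraries it was at least 27-fold higher against a floor of 3 counts in the control library. Its APAP values spread by 3.15 times, and limma-voom did not call it (adjusted p = 0.0673). Itga10, with 1.31, 1.62 and 1.81 CPM in APAP Cxcr4+ macrophages and 1.09 CPM in the control, was not called, and 34.5% of its exon bases are shared with Gm42957. Itga11 had 4, 4 and 0 counts in APAP Cxcr4+ macrophages and 0 in the control, too few to test.

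Among the chains that bind the RGD sequence of fibronectin and vitronectin, the αv and α5 chains rose and the abundant β5 chain did not differ detectably. Itgav, the αv chain, had 318, 323 and 295 CPM in APAP Cxcr4+ macrophages, against 132 CPM in the control. The log2 fold change was 1.24 (SE 0.11, edgeR adjusted p = 0.00124) and 0.68 after the length and GC correction, still called. Itga5, the α chain of the fibronectin receptor, had 56.7, 50.6 and 48.8 CPM in APAP Cxcr4+ macrophages and 34.0 CPM in the control, for a log2 fold change of 0.61 (SE 0.12, edgeR adjusted p = 0.011), and 0.40 after the correction. For both chains every APAP library was above the control. Itgb3, the β3 partner of αv and of platelet αIIb, had 6.59, 9.03 and 9.18 CPM in APAP Cxcr4+ macrophages and 2.80 CPM in the control, for a log2 fold change of 1.56 (SE 0.27, edgeR adjusted p = 0.00739). Here too the groups are apart, with library 1 lowest of the APAP values. Itga2b, the platelet αIIb chain, had 0.796, 1.19 and 1.23 CPM in APAP Cxcr4+ macrophages and 0.534 CPM in the control and was not called (edgeR adjusted p = 0.115).

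Itgb5, the β5 partner of αv, had 722, 903 and 922 CPM in APAP Cxcr4+ macrophages and 906 CPM in the control, with a 95% interval of the log2 fold change of -0.50 to 0.31. The control lies within the APAP range. Of the β partners of αv counted per kilobase, β5 made up 99.4% to 99.5% in APAP Cxcr4+ macrophages and 99.8% in the control, and the ratio of Itgav to Itgb5 was 0.212, 0.172 and 0.154 in APAP Cxcr4+ macrophages and 0.0699 in the control. Itga8 had 4.66, 4.04 and 3.28 CPM in APAP Cxcr4+ macrophages and 1.80 CPM in the control, for a log2 fold change of 1.14 (SE 0.29, edgeR adjusted p = 0.0252). The call was lost without APAP library 2 (adjusted p = 0.076) and after the length and GC correction, at 0.68. Itgb8, which with αv activates latent TGF-β, had 8, 16 and 10 counts in APAP Cxcr4+ macrophages and 0 in the control (edgeR adjusted p = 0.0369). In the mean of the APAP libraries it was at least 3.13-fold higher against the floor of 3 counts. It was not called after the correction, and without APAP library 2 it had too few reads to be tested. Itgb6, the epithelial β6 chain, had 0 counts in all 4 libraries.

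Itgb1, the β1 chain shared by most of the α chains above, did not follow them. It had 544, 533 and 544 CPM in APAP Cxcr4+ macrophages and 640 CPM in the control, for a log2 fold change of -0.25 (95% interval -0.47 to -0.02, edgeR adjusted p = 0.0772). The APAP values nearly coincide and lie below the control. The gene passed the threshold without APAP library 1 (adjusted p = 0.0317) and after the length and GC correction, at -0.49. The sum of all α chains per kilobase was 368, 406 and 414 in APAP Cxcr4+ macrophages and 330 in the control, and that of all β chains was 612, 675 and 658 in APAP Cxcr4+ macrophages and 739 in the control. These sums, like all shares and ratios per kilobase given here, do not carry the length and GC correction. Whether their differences from the control would hold after it was not tested.

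Per kilobase, the same 4 α chains led in every library, but their shares differed. In the APAP libraries αL held 42.1% to 46.4% of the sum and α9 15.6% to 20.9%, while αv held 10.1% to 12.2%, α4 8.96% to 11.9% and α6 5.54% to 7.85%. In the control αL held 58.4%, α9 27.5%, αv 5.66%, α4 2.69% and α6 0.212%. The control lies outside the APAP range for each of these 5 chains, with the APAP shares of αL and α9 below the control and those of the other 3 above it. Among the β chains, β2 held 33.2% to 37.4% in APAP and 34.8% in the control, β5 held 34.8% to 41.3% in APAP and 36.1% in the control, and β1 held 20.7% to 23.3% in APAP and 22.7% in the control. For these 3 β chains the control was within the APAP range. β7 held 3.56% to 4.28% in APAP Cxcr4+ macrophages and 6.32% in the control.

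**Figure D3:**
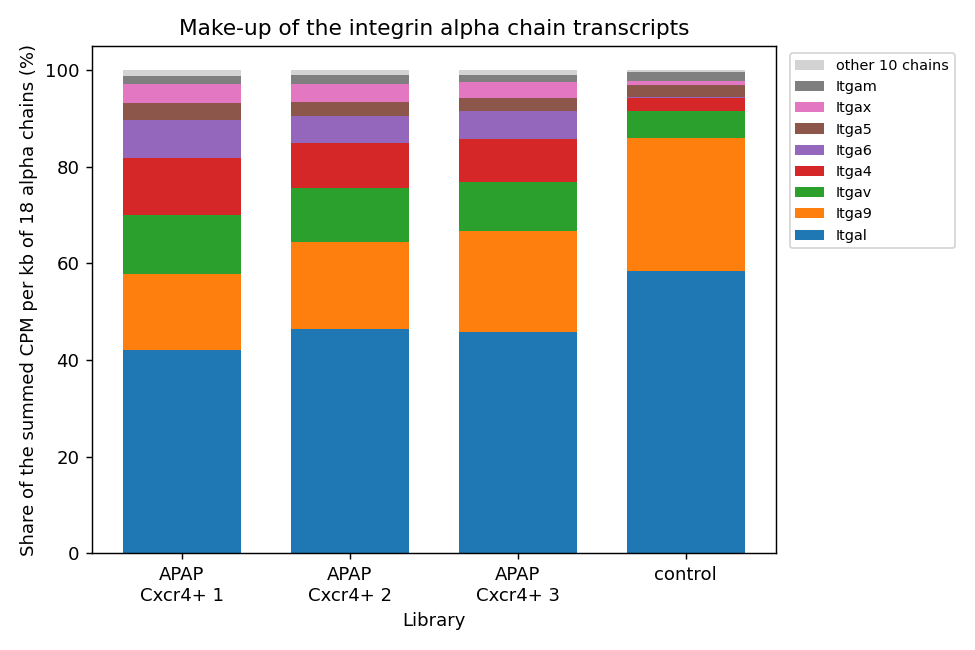
Share of the summed CPM per kilobase of exon of the 18 α chains in each library, as stacked bars in percent, with the 3 APAP Cxcr4+ libraries left of the 1 control. The Itga4, Itga6 and Itgav bands are wider in every APAP bar than in the control bar, where Itgal takes 58.4%.

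Of the talins and kindlins, which switch integrins on, kindlin-2 was the 1 called; the length and GC correction added talin-1 and talin-2. Tln1, talin-1, had 1450, 1530 and 1500 CPM in APAP Cxcr4+ macrophages and 1390 CPM in the control, with a 95% interval of the log2 fold change of -0.16 to 0.38. After the length and GC correction the direction turned, and Tln1 was at -0.43 and called lower. Tln2, talin-2, had 1.63, 1.49 and 1.5 CPM in APAP Cxcr4+ macrophages and 1.74 CPM in the control and was not called, but it was called lower after the correction, at -0.92. Fermt3, the blood cell kindlin, had 472, 508 and 524 CPM in APAP Cxcr4+ macrophages and 601 CPM in the control, for a log2 fold change of -0.26 (edgeR adjusted p = 0.089), and was called lower without APAP library 1 (adjusted p = 0.0483). Fermt2, the kindlin of most other tissues, had 3.86, 4.26 and 6.47 CPM in APAP Cxcr4+ macrophages, against 9.61 CPM in the control, and fell by 0.98 on the log2 scale (SE 0.30, edgeR adjusted p = 0.0443). APAP library 3 is nearest to the control, and the call was lost without APAP library 2 (adjusted p = 0.12) and with the 5 CPM filter (adjusted p = 0.0559). Lrat and Des, markers of stellate cells, were also lower, at 2.76 to 2.90 CPM in APAP Cxcr4+ macrophages and 8.86 CPM in the control for Lrat, and at 0.782 to 0.995 CPM in APAP and 4.49 CPM in the control for Des. Of all 12 stellate and fibroblast markers 4 were called higher and 5 lower, with sums of 52.7 to 66 CPM in APAP and 59.8 CPM in the control, and their part in the Fermt2 result was not tested.

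Among the adaptors and kinases, vinculin and focal adhesion kinase moved in opposite directions. Vcl, vinculin, which couples talin to actin, had 10, 10.3 and 11.1 CPM in APAP Cxcr4+ macrophages, against 1.11 CPM in the control. The log2 fold change was 3.23 (SE 0.21, edgeR adjusted p = 0.000933) and 2.83 after the length and GC correction. The APAP libraries nearly coincide, and the control rests on 50 counts; 39.7% of the exon bases overlap Ap3m1 on the opposite strand, which had 2243 to 2545 counts in APAP Cxcr4+ macrophages and 1580 in the control, so with the strand setting not known the level of Vcl is uncertain. Ptk2, focal adhesion kinase (FAK), had 17.7, 21.4 and 25.6 CPM in APAP Cxcr4+ macrophages, against 43.9 CPM in the control, and fell by 1.02 on the log2 scale (SE 0.20, edgeR adjusted p = 0.00984). Every APAP library was below the control, and the value was -1.42 after the correction. Ptk2b, the related kinase Pyk2 of blood cells, had 304, 298 and 292 CPM in APAP Cxcr4+ macrophages and 264 CPM in the control and was not called (edgeR adjusted p = 0.16). Pyk2 exceeded FAK per kilobase by 22, 17.8 and 14.6 times in APAP Cxcr4+ macrophages and 7.69 times in the control. Pxn, paxillin, an adaptor at the integrin tail, had 279, 288 and 272 CPM in APAP Cxcr4+ macrophages and 338 CPM in the control (log2 fold change -0.27, edgeR adjusted p = 0.0536); it was called lower with upper-quartile factors, without APAP library 1 and after the correction.

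Of the counter-receptors, the 2 ICAMs fell slightly. Icam1, a ligand of αL and αM integrins that inflammation induces, had 104, 93.8 and 91.2 CPM in APAP Cxcr4+ macrophages and 123 CPM in the control, and fell by 0.36 on the log2 scale (SE 0.10, edgeR adjusted p = 0.0377). Icam2, a ligand of αL found on endothelium and leukocytes, had 15.8, 14.7 and 13.6 CPM in APAP Cxcr4+ macrophages and 21.0 CPM in the control, and fell by 0.51 (SE 0.14, edgeR adjusted p = 0.0286). Both had every APAP library below the control, and both calls were lost without APAP library 2 (adjusted p = 0.139 for Icam1 and 0.0915 for Icam2), without APAP library 3 (0.086 and 0.0503) and after the length and GC correction (0.0602 and 0.118). That of Icam1 was also lost with no count filter (adjusted p = 0.0516). The endothelial markers Cdh5 and Clec4g were also lower, with Cdh5 at 474, 692 and 748 CPM in APAP Cxcr4+ macrophages and 1270 CPM in the control. Of the 11 endothelial markers 3 were called higher, namely Kdr, Ptprb and Vwf, and 2 lower. Their sum was 1030 to 1420 CPM in APAP Cxcr4+ macrophages and 1930 CPM in the control. Cdh5 had the highest level of these markers in every library, so the sum depends much on Cdh5. The part of endothelial cells in the Icam2 result was not tested.

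Vcam1, the ligand of α4β1 and a surface protein of Kupffer cells, had the widest APAP spread of the members above 100 CPM in every library. It had 500, 717 and 1200 CPM in APAP Cxcr4+ macrophages and 698 CPM in the control. The log2 fold change was 0.20 (SE 0.45, 95% interval -0.90 to 1.31, edgeR adjusted p = 0.729), and it was -0.18 without APAP library 3. The control lies inside the APAP range, whose highest value is 2.39 times its lowest. The 3 APAP libraries stood in the same order for Itga9 and Ptk2, given above, and for the Kupffer marker Clec4f, at 2790, 4080 and 4670 CPM against 13100 CPM in the control. Other members stood in this order too, among them Itgal, Itgb5, Fermt2 and Fermt3, and also Itgb3 and Vcl, which were called higher. Of the 6 Kupffer markers 5 stood in that order, with Cd5l the exception, and of the 6 markers of monocyte-derived macrophages 4 stood in the opposite order, with Ccr2 and Cx3cr1 in neither. The part of the mix of macrophages in these values was not tested.

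**Figure D4:**
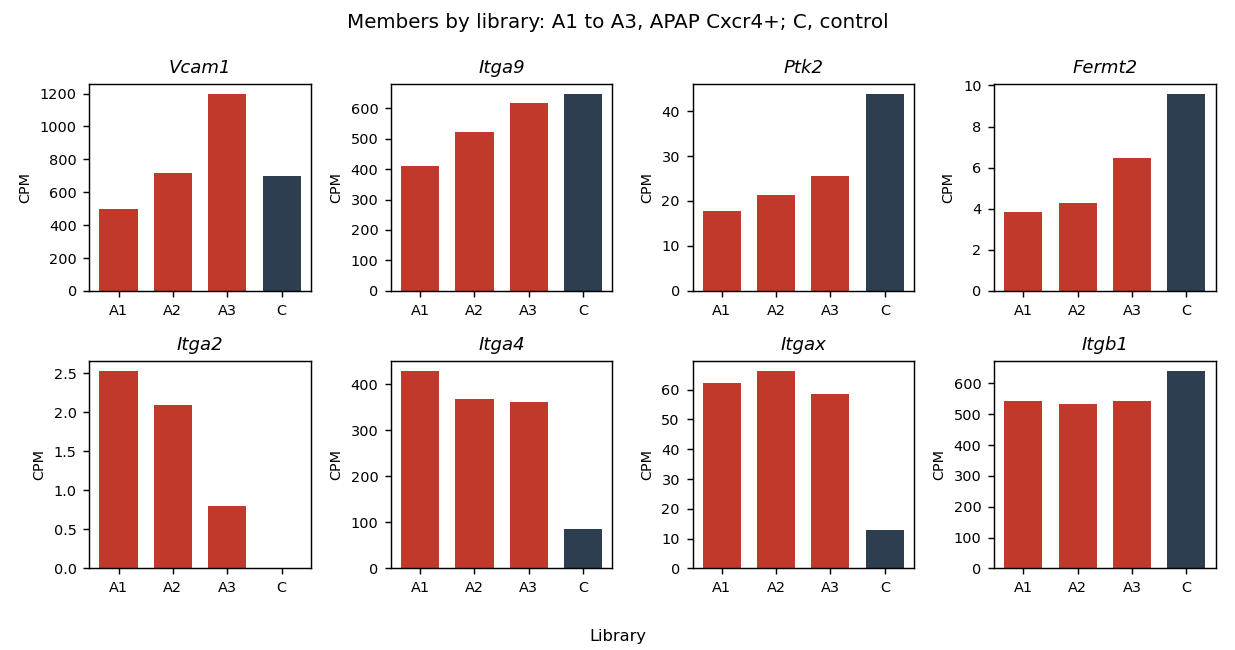
CPM of 8 members in each library, as bars from 0: A1 to A3 are the APAP Cxcr4+ libraries and C the control. Vcam1 runs between 500 and 1200 CPM over the APAP libraries while Itgb1 stays at 533 to 544 CPM.

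The other genes of integrin activation, signalling and binding were counted in 8 lists. Of the 115 genes tested, 42 were called higher and 22 lower (55.7%, all genes 44.3%), with a median log2 fold change of 0.19 against 0.08 over all genes tested. The higher calls numbered 27 without APAP library 2 and 26 after the length and GC correction, when the lower calls outnumbered them. Of 14 genes of Rap1 signalling, which recruits talin to integrins, 4 were called higher and 3 lower (50% called, all genes 44.3%). Rap1b, the main Rap1 of blood cells, had 554, 563 and 569 CPM in APAP Cxcr4+ macrophages and 938 CPM in the control and fell by 0.74 on the log2 scale (edgeR adjusted p = 0.00275), and Rap1a fell by 0.52. The adaptors Fyb and Skap1, which link immune receptors to Rap1, rose by log2 fold changes of 0.70 and 1.11. Without APAP library 1 this list had 7 higher and 3 lower, and without library 2 it had 1 higher and 2 lower, with Skap1 lost (adjusted p = 0.0508). Of 8 genes listed as inactivators of integrins or their partners, 3 were called higher and 3 lower (75% called, all genes 44.3%). Slk and Krit1, which binds the β1 inhibitor encoded by Itgb1bp1, rose by log2 fold changes of 1.19 and 0.79, and Sharpin, Itgb1bp1 and Dab2 fell, by 0.32, 0.91 and 0.65; without library 2 the 3 lower calls became 1, when Sharpin (adjusted p = 0.0984) and Dab2 (0.0584) were lost. After the length and GC correction Krit1, at 0.25, and Sharpin, at -0.14, were not called. Dab2 falls outside the naming rule and was added after its value was seen.

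Podosomes are actin-rich contacts through which macrophages grip and digest matrix, and 92.9% of their 14 genes were called, against 44.3% of all genes tested: 9 were higher (all genes 25.4%) and 4 lower (all genes 18.9%), or 7 higher and 4 lower after the length and GC correction, with a median log2 fold change of 0.75. Sh3pxd2b, the scaffold Tks4, had 167, 116 and 120 CPM in APAP Cxcr4+ macrophages, against 9.26 CPM in the control, for a log2 fold change of 3.86 (SE 0.29, edgeR adjusted p = 0.00107). Pstpip1, a membrane-bending partner of WASP, had 45.9, 45.0 and 34.6 CPM in APAP Cxcr4+ macrophages and 4.09 CPM in the control, for a log2 fold change of 3.35 (SE 0.23, edgeR adjusted p = 0.00102). All APAP values of both genes are several times the control. The unconventional myosin Myo9b and the formin Fmnl1 rose by log2 fold changes of 1.05 and 1.58. Was, the podosome's WASP itself, had 149, 171 and 169 CPM in APAP Cxcr4+ macrophages and 174 CPM in the control and was not called. The 4 lower calls became 1 without APAP library 2. Of 20 linkers to actin around the kinase ILK, 6 were called higher and 4 lower (50% called, all genes 44.3%), among them Tns3 (log2 fold change 1.19), Lims1 (0.76), Vasp (-1.10) and Zyx (-0.58). Without library 2 they were 4 higher and 3 lower. Ilk itself had 32, 19 and 17 counts in APAP Cxcr4+ macrophages and 0 in the control, so it could be called only higher, and it was. Of its exon bases 81.7% overlap Taf10 on the opposite strand, so its count cannot be read as a level.

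Of 23 genes of FAK and Src family signalling, 8 were called higher and 2 lower, with 4 higher and 3 lower without APAP library 2, and 2 higher and 6 lower after the length and GC correction. The share called, 43.5%, is about the 44.3% over all genes tested. Vav3, an exchange factor for small GTPases, rose by a log2 fold change of 1.91, Arhgef6 by 1.46 and Dock2 by 0.67. After the correction Vav3 and Arhgef6 were still called, at 1.51 and 1.11, while Dock2 stood at 0.09 and was not called. Src itself had 13, 18.8 and 15.7 CPM in APAP Cxcr4+ macrophages and 20.1 CPM in the control and was not called.

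Matrix proteins that integrins bind were called higher for 9 of 19 genes tested (all genes 25.4%) and lower for 1 (all genes 18.9%), with a median log2 fold change of 0.94. The share called was 52.6%, against 44.3% over all genes tested. Thbs1, thrombospondin-1, had 68.4, 43.2 and 36.1 CPM in APAP Cxcr4+ macrophages, against 1.67 CPM in the control, for a log2 fold change of 4.88 (SE 0.50, edgeR adjusted p = 0.00179). Fn1, fibronectin, the ligand of α5β1 and α4β1, had 120, 58.6 and 59.2 CPM in APAP Cxcr4+ macrophages and 17.7 CPM in the control, for a log2 fold change of 2.16 (SE 0.50, edgeR adjusted p = 0.0177). In both genes library 1 is highest and all APAP libraries are above the control. Lamc1, a laminin chain and thus part of the ligand of α6, rose by 2.57, and Mfge8, which bridges dying cells to αv integrins, by 2.17. Vtn, vitronectin, a hepatocyte product, fell to 6.35, 5.18 and 8.46 CPM in APAP Cxcr4+ macrophages, against 38.3 CPM in the control (log2 fold change -2.52); 7 of the 10 hepatocyte markers were called lower too, with sums of 256 to 453 CPM in APAP and 900 CPM in the control, and their part in the Vtn result was not tested. The 9 higher calls became 5 without APAP library 2, 4 by limma-voom and 5 after the length and GC correction. After that correction Lama1, at -1.52, and Lamb2, at -0.77, were called lower beside Vtn.

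Other surface partners of integrins were called higher for 2 and lower for 5 of 13 genes tested (53.8% called, all genes 44.3%). Slc3a2, the CD98 heavy chain that binds β1 tails, had 289, 290 and 290 CPM in APAP Cxcr4+ macrophages and 586 CPM in the control and fell by 1.02 on the log2 scale (edgeR adjusted p = 0.00119). Bsg fell by 0.94, the tetraspanin Cd151, a partner of laminin-binding integrins, by 0.76, and Pecam1, a junction protein of endothelium that leukocytes also carry, by 1.07. F11r, a ligand of αL, had 34.8, 47.7 and 39.8 CPM in APAP Cxcr4+ macrophages and 49.0 CPM in the control and was not called.

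**Figure D5:**
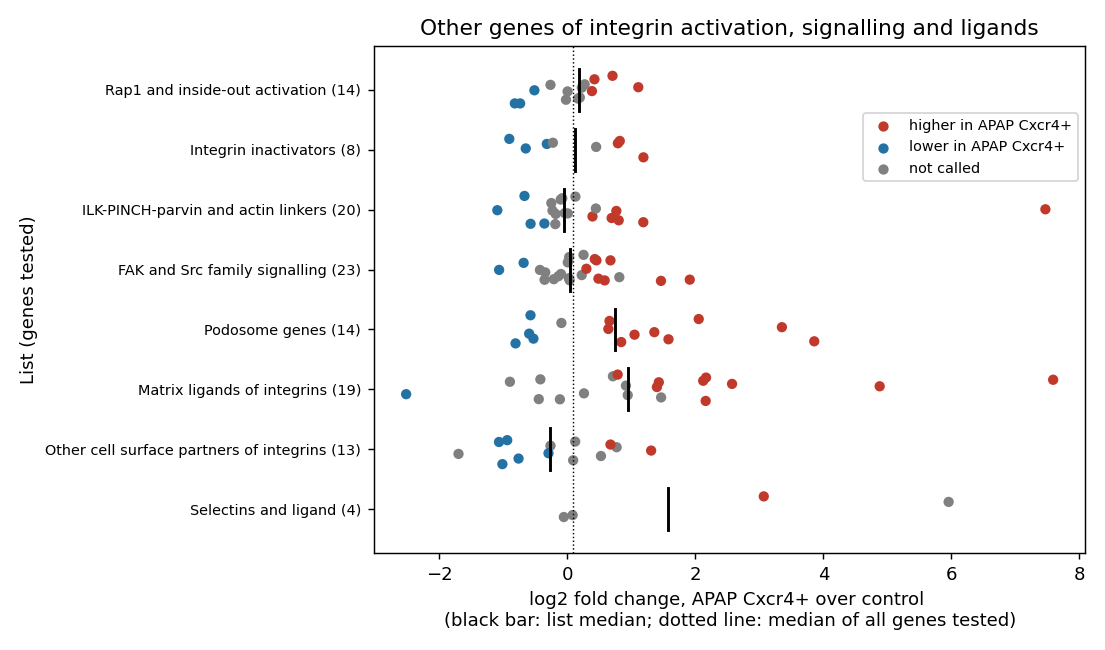
Log2 fold change, APAP Cxcr4+ over control, of the tested genes of 8 other lists of the integrin pathway; each point is a gene coloured by its call, black bars are list medians and the dotted line is the median of all genes tested. The podosome and matrix ligand lists hold their medians right of the line, at 0.75 and 0.94.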

How the data were processed

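The authors deposited read counts per Ensembl gene, whole numbers that are not normalized, for 3 APAP Cxcr4+ libraries and 1 control library. Per the submitters' processing notes, HISAT2, Subread and genome build mm39 were used; for the annotation, the strand setting and the tool versions: not given in the sources used here. The APAP columns carry no replicate number and are numbered 1 to 3 in table order, as names only. Of 29247 gene IDs, 28926 matched a symbol; the other 321 took 0.141% to 0.562% of the counts. Genes were tested with edgeR 4.0.16 (R 4.3.3): the filterByExpr filter (minimum count 10, minimum total 15), TMM factors, the quasi-likelihood F test without covariates, and Benjamini-Hochberg adjustment over 18715 genes, called at 0.05. With 2 residual degrees of freedom, the prior had 3.8 degrees of freedom, and the genes' common coefficient of biological variation was 0.162. The fit was first tested on simulated data. Exon lengths, GC content and overlaps are from GENCODE M21 (GRCm38), and promoter sequences from RefSeq (GRCm38.p6). Lower bounds set the mean of the APAP libraries over a floor of 3 counts in the control library and cover counting error only, since PCR copies are not independent molecules. Intervals are at 95%.

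The members and the lists were chosen with earlier results of these data known. Named genes are all members and, from each list, its first gene and up to 4 called genes with the smallest p-values; anything else named, marker genes included, was picked after its values were seen. Alternatives were DESeq2 1.42.0 size factors and Wald test, a filter at 5 CPM, no count filter, upper-quartile factors, limma 3.58.1 (voom), glmTreat against a log2 fold change of 1, a correction for length and GC, and each APAP library left out. A planned description of the protein tails was not made, as no protein sequences were used here. Some genes that this rule names are not reported here.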

Additional observations from a re-analysis of the deposited data

How the results depend on the processing

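With 1 control library, no control could be left out, and every fold change rests on it. The 13 higher and 5 lower members became 8 and 4 with the 5 CPM filter, which tested 24 members, and 10 and 9 after the length and GC correction. In glmTreat, which asks for more than a log2 fold change of 1, they became 7 and 0 (also 0 lower at an unadjusted p under 0.05). Over all genes, 4758 were called higher and 3537 lower; the 5 CPM filter gave 3097 higher, and glmTreat 1099 and 280. Of all calls, 57.4% were higher, but 45.8% after the length and GC correction and 79.7% in glmTreat. The pathway genes, 42 higher and 22 lower, became 26 higher and a larger number lower after the correction, and 11 and 1 in glmTreat. Leaving out 1 APAP library at a time gave 2979 to 5195 genes higher, 2022 to 4185 lower, 2 to 8 members lower, 11 to 13 members higher, 27 to 49 pathway genes higher and 15 to 23 lower; the lowest value of each came without library 2.

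The log2 fold change turned direction when 1 APAP library was left out for Itgb5 (-0.141 to 0.009), Itgb4 (-0.525 to 0.103) and Vcam1 (-0.182 to 0.454), and after the length and GC correction for Itgam (-0.11), Tln1 (-0.43), Ptk2b (-0.022) and Vcam1 (-0.19); the cause was not tested. Itga4, Itga6, Itgax and Vcl were called in all 12 settings, the main one included. DESeq2 gave no adjusted p for 726 genes. No paired analysis was possible because the 1 control shares no replicate number with the APAP columns, which carry none. Depth limits Itga11, Itgb6, Itgb8, Itga7, Itga3 and Itgb4, each with fewer than 50 counts in every library.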
